A study of Mus musculus with 39 samples.

Results

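Paw skin of male mice was followed over 3 days after the drug paclitaxel in 9 of the 39 libraries of the series, taken as all libraries that the labels call male, hind paw and day 2, 6 or 15. The mice were C57 males aged 8 to 12 weeks. Each had received 2 intraperitoneal injections of paclitaxel at 3 mg/kg, separated by a day, and the days were counted from the last injection. There were 3 libraries per day, made from punch biopsies of the hind paw. Every mouse of the course had received the drug, and the 39 libraries include no vehicle males. A value that was raised or lowered on all 3 days therefore cannot be told from a normal male level. The 3 paw libraries of vehicle females, sampled 1 day after vehicle, are given as background values, and they differ from the course in sex as well as in treatment. Their titles call them WT (wild-type) control, while the titles of the libraries from treated mice name no genotype. Paw libraries of females on days 2, 6, 16 and 26 after the same 2 injections of paclitaxel at 3 mg/kg entered the shared fit and some comparisons. Whether the 3 libraries of a day are 3 animals is not stated in the labels. The p-values therefore rest on differences among these libraries, and part of those may be technical.

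Paclitaxel binds tubulin and stabilises microtubules, which stalls dividing cells in mitosis and disturbs transport along axons. In skin it reaches the dividing cells of the basal epidermis and of the hair bulb, and the endings of the sensory nerves that signal pain. Footpad skin carries a thick epidermis marked by keratin 9, while the hairy skin beside it holds follicles that cycle between growth and rest. Skin also keeps its own daily clock, and it answers damage with stress keratins, S100 proteins and cytokines.

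Reads on genes numbered 18105702 to 21537748 per library, with at least 1 read on 17070 to 17390 of the 22609 genes listed. Values are given as CPM, a read count scaled to a fixed library total after scaling for library composition, always in the order of replicates 1, 2 and 3. The male label held in all 9 libraries, with Xist at 0.387 to 0.896 CPM and Ddx3y at 83.7 to 124 CPM. Epidermal markers were high in every library (Krt10 at 39400 to 58800 CPM, Krt14 at 2430 to 3660 CPM), and the fibroblast gene Dcn stood at 1890 to 2970 CPM. The bone gene Bglap had at most 1 read in any library, and the neutrophil gene Retnlg at most 5. Other members of their lists were read. Summed CPM was 85.41 to 375.9 for bone and cartilage genes and 13.01 to 54.74 for neutrophil-associated genes.

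Single libraries differed in ways that touch many of the values that follow. The biopsies held different amounts of skeletal muscle. The mean level of 32 muscle genes was 8.59, 3.72 and 6.80 log2 CPM on day 2, 7.65, 4.98 and 7.35 on day 6 and 8.65, 6.84 and 8.47 on day 15. Replicate 2 was the lowest on each of the 3 days, and replicate 1 the highest. By replicate number the means were 8.3 ± 0.563, 5.18 ± 1.57 and 7.54 ± 0.849 (SD, n = 3 days each). By day they were 6.37 ± 2.47, 6.66 ± 1.46 and 7.99 ± 0.997 (SD, n = 3), so the days differed by less than the spread among the day 2 libraries. The female paw groups had no such common order. Replicate 2 was the lowest in vehicle females (8.54, 1.04 and 7.33) and on days 2 and 26, the highest on day 6 (1.77, 7.71 and 1.88), and on day 16 replicate 3 was the lowest (8.97, 8.72 and 4.46). The gene for skeletal actin, Acta1, measured 3958, 148 and 824 CPM on day 2, 1162, 174 and 1081 on day 6 and 2839, 781 and 1928 on day 15. The first principal component of the 9 libraries (47.7% of variance) gave replicate 2 the lowest score on every day.

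Replicate 1 of day 6 stood apart. It had the lowest mean level of hair shaft genes, 0.25 log2 CPM against 2.05 to 4.12 in the other 8 libraries, and the highest mean of neutrophil-associated genes, 2.68 against 0.12 to 1.96. It also lay at one end of the second principal component (14.2% of variance). Replicate 1 of day 2 held 204 CPM of Krt9, the keratin of palm and sole, where the other 8 libraries held 1233 to 2682 CPM. Bulk libraries cannot tell fewer cells of a type from less RNA per cell, which applies to every level below.

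**Figure D1:**
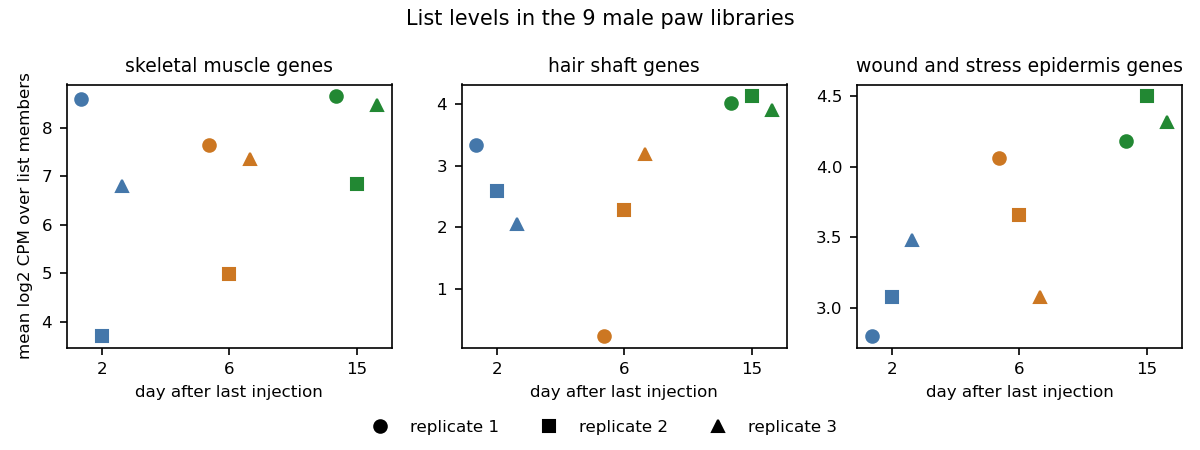
Mean log2 CPM of the skeletal muscle, hair shaft, and wound and stress epidermis gene lists in each of the 9 male paw libraries, by day after the last injection, with 1 symbol per replicate number. Replicate 2 (squares) had the lowest muscle level on each day, replicate 1 of day 6 (circle) the lowest hair shaft level, 0.25, and the day 15 libraries the 3 highest hair shaft and stress levels.

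The course asks how paw skin differed between an early, a middle and a late day after dosing. No gene passed a Benjamini-Hochberg adjusted p of 0.05 in edgeR's quasi-likelihood test for day 6 against day 2, day 15 against day 2, day 15 against day 6, the linear trend over days, day 6 against the mean of the other days, or any change over the 3 days (0 of 15346 genes tested, 0% in each). DESeq2 on the same counts called 1 gene (0.00652%) for day 6 against day 2, Aldh1a2. It called 2 (0.013%) for day 15 against day 2 and for the trend, Per3 and Krt42 in both, and 4 (0.0261%) for any change, those 3 and Plac9. At an unadjusted p under 0.05, edgeR gave 345 genes (2.25%) for day 6 against day 2, 629 (4.1%) for day 15 against day 2 and 679 (4.42%) for day 15 against day 6. The corresponding DESeq2 counts were 333, 617 and 621. The counts for the trend, the middle day and any change were 714 (4.65%), 457 (2.98%) and 535 (3.49%). The 3 libraries of one day did not overlap those of the other in 5.96% of genes for days 6 and 2, 9.9% for days 15 and 2 and 12.2% for days 15 and 6. With no difference between days, a share of 0.1 of genes would separate in this way. Likewise a share of 0.05 would have an unadjusted p under 0.05. Neither mark alone sets a gene apart. The median gene had a 95% interval of 0.364 to either side of its log2 difference between days 15 and 2 before any adjustment. A missing call leaves room for larger differences, as the uncalled values of Per3 and Krt42 below show. The median log2 difference over all genes was close to 0 (-0.00469 for day 6, -0.0188 for day 15, each against day 2). Some counts are also given without a library. Without replicate 1 of day 6, 2.29%, 3.93% and 3.95% of all genes were past an unadjusted p of 0.05 in the comparisons of days 6 and 2, 15 and 2 and 15 and 6. Without replicate 1 of day 2 the first 2 shares were 2.95% and 5.36%, and without replicate 2 of each day the 3 shares were 2.75%, 2.64% and 3.2%. The levels and intervals that follow are therefore descriptive. The gene lists were chosen with earlier results of these data known. Their counts beside the share of all genes are therefore descriptions too, and no test of a list. Genes of a fixed set were named whatever their result, and all others were chosen after their values were seen. Genes of a list can move together, so a count of signs is no count of independent genes. Among 32 skeletal muscle genes, 31 had a positive difference on day 15 from day 6 and 29 from day 2. None of them was past an unadjusted p of 0.05. The share of all genes with each sign is not given.

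The 4 genes that DESeq2 called are described first. Per3 encodes a period protein of the circadian clock. It measured 75.9, 89.6 and 83.6 CPM on day 2, 59.4, 66.8 and 73.1 on day 6 and 52.8, 43.6 and 45.3 on day 15. The 3 days did not overlap, with day 2 the highest and day 15 the lowest. The log2 difference of day 15 from day 2 was -0.81 (95% interval -1.11 to -0.52, unadjusted p = 1.5e-05), with an adjusted p of 0.184 in edgeR and 0.000285 in DESeq2. The trend over days was -0.06 (95% interval -0.08 to -0.04) per day, with an adjusted p of 0.136 in edgeR. Over 16 alternative fits the day 15 difference ran from -0.894 to -0.695, and its adjusted p from 0.000285 to 1. Vehicle females, at 36.2 to 42 CPM, were below the male libraries of every day.

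Krt42, a type I keratin gene, measured 0.452, 0.341 and 0.34 CPM on day 2, 0.987, 1.31 and 0.765 on day 6 and 3.81, 2.74 and 2.32 on day 15. Again no library of one day overlapped another day, with the lowest values on day 2 and the highest on day 15. The log2 difference of day 15 from day 2 was 2.95 (95% interval 1.83 to 4.07, unadjusted p = 2.52e-05), adjusted p = 0.184 in edgeR and 0.00484 in DESeq2 (2.72 to 3.12 over 16 alternatives, adjusted p 0.00484 to 1). Its trend was 0.22 (95% interval 0.14 to 0.30) per day on the log2 scale (edgeR adjusted p = 0.136). The day 2 levels of 0.34 to 0.452 CPM rest on few reads, so the size of these differences is uncertain. Type I keratins are close copies of each other, so reads may be split between them by the authors' counting. Vehicle females held 0.141 to 0.383 CPM, near the male day 2 level.

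Aldh1a2 encodes an enzyme that makes retinoic acid from retinal. Its levels were 7.27, 6.91 and 7.47 CPM on day 2, 14.3, 11.9 and 10.9 on day 6 and 9.08, 8.67 and 8.54 on day 15. All day 6 libraries lay above all others of the course, and all day 15 libraries lay above those of day 2. For day 6 against day 2 the log2 difference was 0.78 (95% interval 0.43 to 1.12, unadjusted p = 0.00014), with an adjusted p of 1 in edgeR and 0.0481 in DESeq2 (0.65 to 0.855 over 16 alternatives, adjusted p 0.0481 to 1). Vehicle females stood lower, at 4.88 to 5.3 CPM. Plac9 was low throughout, with 29, 19 and 15 reads on day 2, 3, 0 and 0 reads on day 6 and 21, 9 and 15 reads on day 15. The day 6 libraries were below all the others, at counts where a fold is not given.

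Clock genes other than Per3 also stood apart on day 15. The mammalian clock is a loop in which ARNTL, paired with CLOCK or NPAS2, binds E-boxes and drives the Per, Cry and Nr1d genes, whose products shut the loop down again. The factors DBP, TEF and HLF form an output arm that binds D-boxes. Of 20 clock genes tested, 9 were lower and 2 higher on day 15 than on day 6 at an unadjusted p under 0.05, and 6 lower and 2 higher than on day 2. By sign alone, 13 and 15 of the 20 had a negative difference. Over all genes, 3% were lower and 1.43% higher at that p in the first comparison, and 2.6% lower and 1.5% higher in the second. The list's median log2 difference was -0.265 and -0.225, against -0.0195 and -0.0188 for all genes. Day 6 against day 2 gave 1 higher and 1 lower clock gene, where 1.41% of all genes were higher and 0.834% lower, and a median of -0.00388.

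Start-site windows of 4 clock genes that stood lower on day 15 are shown because their upstream bases hold the letters of a clock element. They are the 250 bases before the annotated start, from RefSeq on GRCm38.p6, while the authors' counts used mm9, and Gm129 in the files is Ciart in RefSeq. Capitals mark the D-box TTATGTAA in Per3 and the E-box CACGTG in the others, searched on both strands. Per3 is chr4:151044666-151044915 (minus strand), Gm129 chr3:95882229-95882478 (minus), Tef chr15:81802423-81802672 (plus) and Per1 chr11:69098699-69098948 (plus).
Per3: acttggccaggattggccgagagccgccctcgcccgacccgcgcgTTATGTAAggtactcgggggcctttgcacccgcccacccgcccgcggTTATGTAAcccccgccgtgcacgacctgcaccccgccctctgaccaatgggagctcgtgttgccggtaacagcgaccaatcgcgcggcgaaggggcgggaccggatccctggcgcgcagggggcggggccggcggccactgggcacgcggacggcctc
Gm129: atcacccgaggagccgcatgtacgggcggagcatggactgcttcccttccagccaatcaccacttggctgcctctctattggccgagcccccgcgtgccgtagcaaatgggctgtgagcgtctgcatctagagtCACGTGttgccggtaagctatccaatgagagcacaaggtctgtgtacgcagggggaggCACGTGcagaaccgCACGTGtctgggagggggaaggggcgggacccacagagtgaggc
Tef: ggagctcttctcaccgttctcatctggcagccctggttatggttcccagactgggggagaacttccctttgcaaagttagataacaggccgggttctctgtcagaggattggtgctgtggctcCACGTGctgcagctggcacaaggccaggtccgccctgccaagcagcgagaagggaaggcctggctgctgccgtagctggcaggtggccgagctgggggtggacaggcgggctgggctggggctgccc
Per1: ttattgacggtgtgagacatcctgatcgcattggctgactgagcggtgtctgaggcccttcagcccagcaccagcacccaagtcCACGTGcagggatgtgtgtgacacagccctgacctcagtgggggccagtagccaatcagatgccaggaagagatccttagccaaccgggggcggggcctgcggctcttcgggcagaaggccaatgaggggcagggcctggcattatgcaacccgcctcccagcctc

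The D-box letters occurred 2 times in the Per3 window and in 0.819% of all 32851 windows. The E-box letters occurred 3 times in the Gm129 window, and in 6.02% of all windows. Of the 17 clock genes with a window, 5 held the E-box and 1 the D-box in these bases. Over all 27025 genes with a window, 6.86% and 0.977% did. Cry1 and Bhlhe41 also held the E-box and are not shown. A match of letters is a description and not a binding site.

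Among the output factors, Dbp measured 56.5, 50 and 39 CPM on day 2, 59.2, 59.2 and 57.2 on day 6 and 41.2, 32.6 and 31.3 on day 15. Day 6 was the highest and most uniform day, and day 15 lay below it in every library, though replicate 1 of day 15 overlapped day 2. Its difference between days 15 and 6 was -0.74 (95% interval -1.07 to -0.41, unadjusted p = 0.000167) on the log2 scale, the smallest p of that comparison (adjusted p = 0.999). Its exons overlap those of Sphk2 on the other strand, and the strand setting of the counting is not given in the sources used here. Tef measured 271, 300.0 and 262 CPM on day 2, 277, 266 and 277 on day 6 and 245, 206 and 221 on day 15, and Hlf measured 54.1, 79.3 and 80.2 CPM on day 2, 66.4, 66.8 and 82 on day 6 and 53.7, 46.3 and 52.3 on day 15. In both genes all day 15 libraries lay below all others, with log2 differences from day 2 of -0.31 (95% interval -0.55 to -0.07) and -0.49 (95% interval -0.81 to -0.17).

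In the loop itself, Arntl measured 40.1, 47.7 and 61.8 CPM on day 2, 38.4, 47.1 and 47.8 on day 6 and 55.9, 72.9 and 63.7 on day 15. Day 15 lay above day 6 without overlap (0.53, 95% interval 0.23 to 0.83, unadjusted p = 0.00156 on the log2 scale) and overlapped day 2 through replicate 3 of that day. Npas2, the partner of ARNTL, had a log2 difference of 0.52 (95% interval 0.11 to 0.93) between the same days, and Clock one of 0.17 (95% interval -0.18 to 0.52), with overlapping libraries. Per1 stood at 97.1, 105 and 102 CPM on day 2 and at 59, 81.5 and 55.9 on day 15, all lower. Gm129, a repressor of the loop, and Nr1d2 were also lower on day 15 in every library than on the other days, with log2 differences from day 6 of -0.59 and -0.24. Nr1d1 stood at 373, 322 and 317 CPM on day 6 against 320.3, 235 and 212 on day 2, overlapping through replicate 1 of day 2.

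Vehicle females lay beyond the day 15 libraries, with Dbp at 12.8 to 19.2 and Tef at 119 to 145 CPM, below them, and Arntl above them at 85.5 to 104 CPM. Hlf did not share this, at 69 to 98 CPM. The labels give no hour of collection, and its part in these levels was not tested. Without replicate 2 of each day, an alternative chosen after seeing the data, 1 clock gene was lower on day 15 than on day 2 in place of 6 and none was higher. In the 9 male libraries alone 8 were lower and 2 higher, and with the muscle level as a covariate in that fit 7 and 2.

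**Figure D2:**
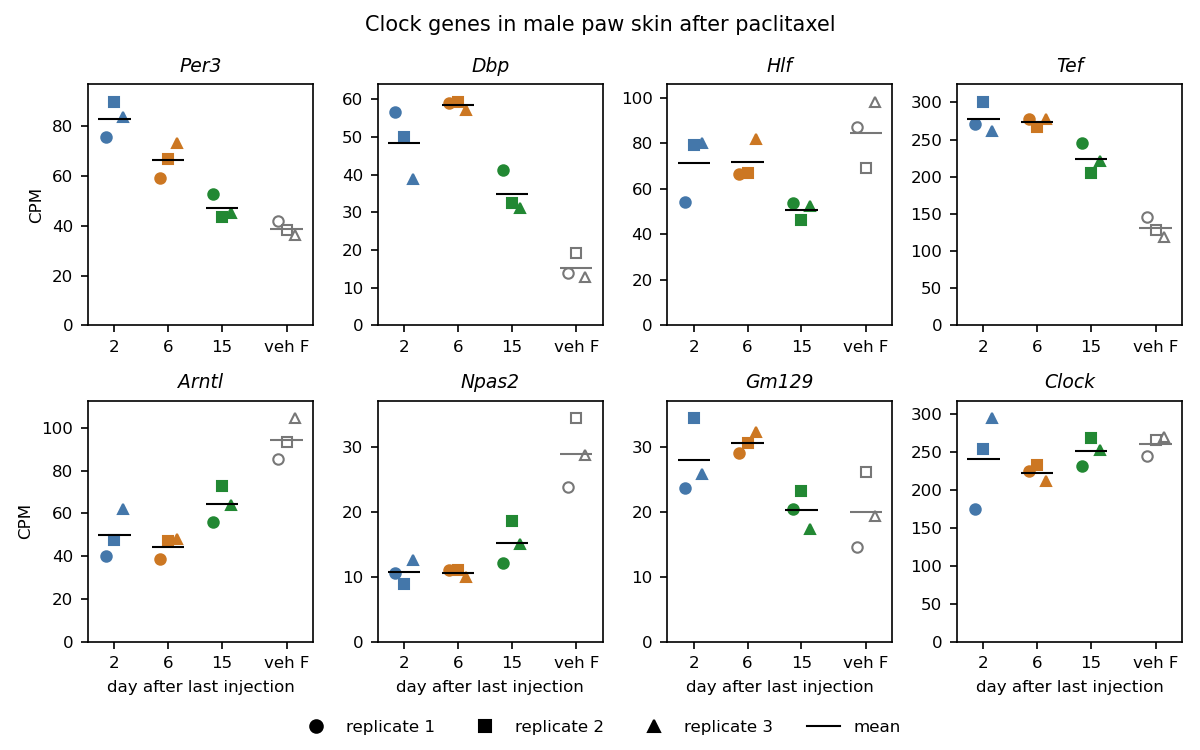
CPM of 8 clock genes in the 9 male paw libraries by day after the last injection (filled symbols, 1 per replicate number, bar at the mean of 3) and in 3 vehicle female libraries (open symbols, veh F). Per3 steps down over the 3 days, Dbp, Hlf, Tef and Gm129 are lowest among male days on day 15, and Arntl and Npas2 are highest there.

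Genes of stressed and healing epidermis were the next group. Keratins 6, 16 and 17 replace the normal keratins of thickened or wounded epidermis, S100A8 and S100A9 form a calcium-binding pair made by such keratinocytes and by neutrophils, and the small proline-rich and late cornified proteins reinforce the cell envelope. Of 27 genes tested, 4 were higher on day 6 and 9 on day 15 than on day 2 at an unadjusted p under 0.05, where 1.41% and 1.5% of all genes were higher, and none was lower. The median log2 difference was 0.135 and 0.478.

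S100a9 measured 0.678, 0.292 and 0.097 CPM on day 2, 26.9, 1.45 and 0.164 on day 6 and 27.1, 38.4 and 44.5 on day 15. Day 2 was near 0 in all 3 libraries, day 6 was high in replicate 1 alone, and all day 15 libraries were as high or higher. The difference of day 15 from day 2 was 6.64 (95% interval 2.77 to 10.50, unadjusted p = 0.00195) on the log2 scale. S100a8 measured 4.07, 1.22 and 1.26 CPM on day 2, 26.4, 3 and 0.601 on day 6 and 38, 42.4 and 62.8 on day 15, also high in replicate 1 of day 6 and in all day 15 libraries, with a difference of 4.44 (95% interval 1.76 to 7.11). The neutrophil gene Retnlg had at most 5 reads in any of the 9 libraries. Of 13 neutrophil-associated genes in the files, 6 passed the low-count filter, and all 6 had a positive difference from day 2 on both later days (median log2 1.37 and 1.03). A gene near 0 on day 2 could pass that filter through the libraries where it was high, so these signs are no independent support. Mmp9, a gelatinase of neutrophils and other cells, measured 0.678, 2 and 0.971 CPM on day 2, 5.92, 2.33 and 0.82 on day 6 and 6.2, 9.02 and 6.75 on day 15.

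Krt16 measured 15.9, 29.4 and 62.5 CPM on day 2, 177, 80.7 and 22.9 on day 6 and 91.2, 104 and 84.5 on day 15. The day 15 libraries were above those of day 2 and close to each other, and day 6 spread over both. Its log2 difference from day 2 was 1.38 (95% interval 0.12 to 2.64) on day 15. Krt6b followed the same order, at 2.17, 9.2 and 20.9 CPM on day 2, 122, 26.7 and 2.9 on day 6 and 46.7, 44 and 43.3 on day 15, though Krt6a and Krt6b are near-identical copies whose reads may be split. Krt17, also expressed in the hair follicle, stood at 246, 262 and 264 CPM on day 2 and 403, 457 and 313 on day 15, without overlap. Sprr2e was below 0.4 CPM in every day 2 library and at 1.51, 2.51 and 2.95 on day 15.

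The stress genes on day 6 rested on replicate 1. Without that library, a setting chosen for the list counts after seeing the data, 0 of 27 stress genes were higher on day 6 than on day 2 in place of 4, while the count for day 15 was again 9. The day 15 count was 5 without replicate 1 of day 2, and without replicate 2 of each day it was 5 as well.

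Few genes of the ordinary epidermal layers were past an unadjusted p of 0.05. Krt14, the basal keratin, measured 2427, 3588 and 3199 CPM on day 2, 3664, 3528 and 2977 on day 6 and 2552, 3645 and 2498 on day 15, with overlapping days and a log2 difference of -0.08 (95% interval -0.50 to 0.33) for day 15 against day 2. Lor, the main protein of the cornified envelope, measured 2587, 3651 and 3335 CPM on day 2, 2968, 3755 and 3753 on day 6 and 2536, 4027 and 2292 on day 15, with -0.11 (95% interval -0.76 to 0.53). Sprr1b, an envelope protein on the stress list, gave 0.23 (95% interval -0.26 to 0.72). Of 14 basal genes 2 were lower at that p on day 15, the laminin subunits Lama3 (-0.30 on the log2 scale) and Lamb3 (-0.42), and none was higher. Over all genes, 2.6% were lower. No gene of the suprabasal (17), cornified envelope (23) or barrier lipid (25) lists was past an unadjusted p of 0.05 on day 15, where 4.1% of all genes were. On day 6 Krt80, Flg2 and Krt15, which belong to differentiating and basal cells, were higher than on day 2 by 0.45, 0.70 and 0.51 on the log2 scale. Krt9 spread too widely to place, with a difference of 0.18 (95% interval -1.94 to 2.30) for day 15.

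**Figure D3:**
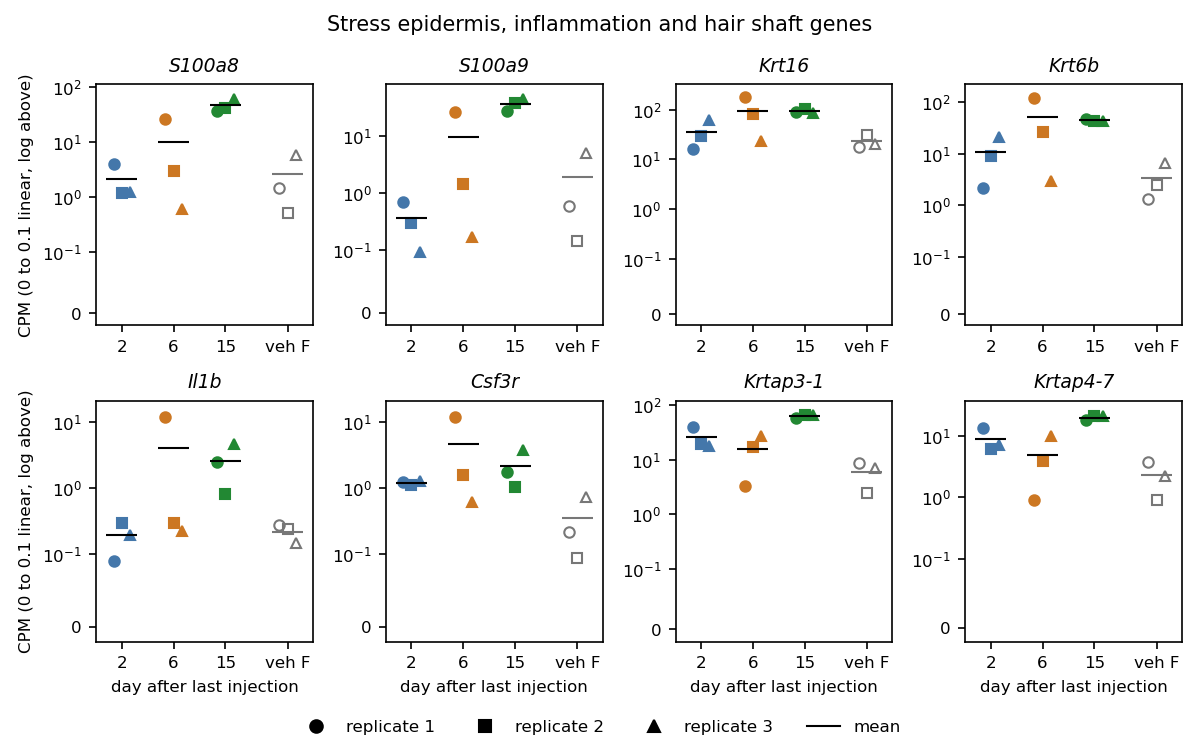
CPM on a log axis (linear below 0.1) of stress epidermis genes, cytokine and neutrophil-associated genes and 2 hair keratin-associated genes in the male libraries of each day (filled, bar at the mean of 3) and in vehicle females (open). On day 6 replicate 1 (circle) is the highest for S100a8, S100a9, Krt16, Krt6b, Il1b and Csf3r and the lowest for Krtap3-1 and Krtap4-7.

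Hair shaft genes were highest on day 15. Keratin-associated proteins fill the space between hair keratins and are made only while a follicle grows a shaft. Of 27 genes tested, 14 were higher on day 15 than on day 6 at an unadjusted p under 0.05, where 1.43% of all genes were, and 3 were higher than on day 2, where 1.5% were. By sign alone, all 27 had a positive difference in both comparisons. The medians were 1.86 and 1.19 on the log2 scale. The count against day 6 was 3 and the median 1.36 without replicate 1 of day 6, and without replicate 2 of each day the count was 3 as well. Krtap3-1 measured 40.2, 19.3 and 17.5 CPM on day 2, 3.32, 16.7 and 27.1 on day 6 and 57.7, 66.6 and 64.5 on day 15. The day 15 libraries lay close together above all others, and replicate 1 of day 6 lay below all others. Its difference between days 15 and 6 was 2.01 (95% interval 0.47 to 3.54, unadjusted p = 0.0132), and between days 15 and 2 it was 1.29 (95% interval -0.20 to 2.79). Gprc5d, a receptor of the hair cortex, measured 11.9, 4.62 and 5.05 CPM on day 2, 0.493, 4.12 and 7.27 on day 6 and 14.3, 16.7 and 12.6 on day 15, in the same order. Krt81 and Krt86, hair keratins, stood at 19.6 to 20.1 and 20.2 to 23 CPM on day 15, against 0.493 to 10.3 and 1.26 to 8.31 on day 6.

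The inner root sheath, which moulds the growing shaft, was also lowest in replicate 1 of day 6. Its genes Krt71 and Tchh measured 20.1, 267 and 284 and 32, 336 and 338 CPM on day 6 and 359.9, 395 and 262 and 456, 489 and 375 on day 15. None of 9 sheath genes was past an unadjusted p of 0.05 in any pair of days. Over all genes, 2.25%, 4.1% and 4.42% were for days 6 and 2, 15 and 2 and 15 and 6. All 9 had a positive difference from day 2 on both later days, with medians of 0.188 and 1.09 on the log2 scale. Regulators of the follicle were flatter, as with Lef1, a transcription factor of the hair bulb, at 2.67, 3.12 and 2.52 CPM on day 2, 1.39, 4.26 and 3.5 on day 6 and 2.92, 4.68 and 2.37 on day 15. Of 25 regulators tested, 1 was lower on day 15 than on day 2 at that p, the signalling factor Bmp4 (-0.42, 95% interval -0.71 to -0.13). Over all genes, 2.6% were lower. Vehicle females held 2.49 to 8.76 CPM of Krtap3-1, below the male libraries of days 2 and 15.

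Genes of mitosis stood lower on day 2 than on both later days. All 30 tested had a positive difference from day 2 on day 6 and again on day 15, comparisons that share the day 2 libraries, with medians of 0.345 and 0.333. At an unadjusted p under 0.05, 7 were higher on day 6 and 8 on day 15, where 1.41% and 1.5% of all genes were, and none was lower. Between days 15 and 6 the median was -0.0253 and none was past that p, where 4.42% of all genes were. Ube2c, which loads ubiquitin onto mitotic regulators for their destruction, measured 11.5, 13.6 and 11.5 CPM on day 2, 19.1, 23 and 19.6 on day 6 and 17.2, 21 and 18.7 on day 15. All day 6 and day 15 libraries were above all day 2 libraries. Its log2 differences were 0.75 (95% interval 0.38 to 1.12, unadjusted p = 0.000415) and 0.63 (95% interval 0.27 to 1.00, unadjusted p = 0.00188) (adjusted p = 1 for day 6, 0.0975 to 1 over the alternatives for day 15). Ube2c overlaps the muscle gene Tnnc2 on the other strand, and on each day it was highest in replicate 2, where Tnnc2 and the muscle level were lowest.

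Ccnb1, the cyclin that starts mitosis, measured 4.47, 4.14 and 5.43 CPM on day 2, 6.87, 8.67 and 7.11 on day 6 and 7.13, 8.62 and 7.38 on day 15. Its libraries also separated from day 2 without overlap, with differences of 0.69 (95% interval 0.29 to 1.09) and 0.72 (95% interval 0.32 to 1.12), and a pseudogene of it is annotated. The spindle genes Nusap1 and Tpx2 and the cyclin gene Ccna2 did not overlap day 2 on either later day, at 0.60, 0.40 and 0.43 for day 6 and 0.54, 0.42 and 0.41 for day 15 on the log2 scale. Nusap1 and Ccna2 share exon bases with Oip5 and Exosc9 on the other strand.

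The common proliferation markers were less separated. Mki67 measured 249.8, 316 and 306 CPM on day 2, 318, 403 and 311 on day 6 and 292, 376 and 339 on day 15, with day 15 overlapping day 2 and a difference of 0.21 (95% interval -0.39 to 0.80). Top2a, the topoisomerase that untangles chromosomes, measured 105, 112 and 104 CPM on day 2, 135, 152 and 118 on day 6 and 99.4, 145 and 131 on day 15, with 0.34 (95% interval -0.09 to 0.77) for day 6. Of 28 genes of DNA replication tested, 1 was lower and none higher on day 6 at an unadjusted p under 0.05, the origin factor Orc1 (-0.70), with a median of -0.0792, and on day 15 none was past that p. Over all genes, 0.834% were lower on day 6, and 4.1% were past that p in either direction on day 15.

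In a fit of the 9 male libraries alone, 14 of 30 mitosis genes were higher on day 6 and 15 on day 15 at an unadjusted p under 0.05, where 2.44% and 4.61% of all genes were past that p in either direction. With the muscle level as a covariate in that fit the counts were 25 and 27, where 6.08% and 9.92% of all genes were past that p in either direction, and no gene passed after adjustment. The counts were 3 on each day without replicate 1 of day 2, and likewise without replicate 2 of each day. Tubulins, the proteins that paclitaxel binds, gave none of 13 genes past an unadjusted p of 0.05 on either day (medians 0.106 and 0.0823). Over all genes, 2.25% and 4.1% were past it in either direction, and with 13 genes none is near those shares.

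**Figure D4:**
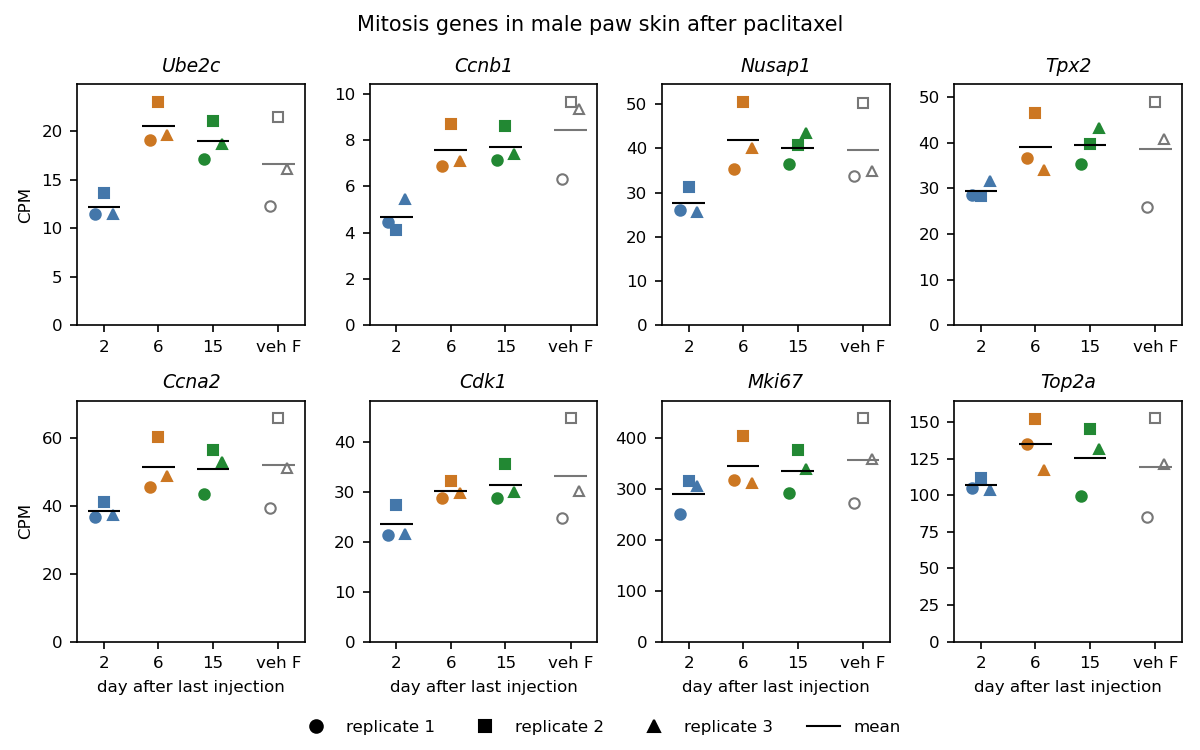
CPM of 8 mitosis genes in the male libraries of each day (filled, 1 symbol per replicate number, bar at the mean of 3) and in vehicle females (open). Ube2c, Ccnb1, Nusap1, Tpx2, Ccna2 and Cdk1 do not overlap between day 2 and either later day, while Mki67 overlaps, and replicate 2 (squares) is often the highest of its day.

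Immune genes past an unadjusted p of 0.05 on day 15 included several of antigen presentation and of cytokines. Class II proteins display peptides to T cells and are made in skin by Langerhans cells and other dendritic cells. Of 16 genes tested, 4 were higher on day 6 and 6 on day 15 than on day 2 at that p and none lower, where 1.41% and 1.5% of all genes were higher, with medians of 0.333 and 0.385. On day 6 none was higher and 1 lower without replicate 1 of that day, and on day 15 again 6 were higher. With replicate 2 of each day left out, 1 was higher on day 6 and 4 on day 15. H2-Ab1, a class II chain, measured 110.1, 103 and 80.7 CPM on day 2, 139, 131 and 106 on day 6 and 132, 139 and 143 on day 15. Its day 15 libraries lay above all day 2 libraries and its difference was 0.50 (95% interval 0.15 to 0.84). Cd207, langerin of Langerhans cells, measured 8.63, 8.81 and 5.14 CPM on day 2, 6.1, 12.6 and 8.42 on day 6 and 10.8, 11.5 and 12.3 on day 15, again without overlap between days 2 and 15 (0.61, 95% interval 0.05 to 1.18). The dendritic integrin gene Itgax gave 0.89 (95% interval 0.38 to 1.40). Vehicle females overlapped male day 15 in H2-Ab1 (139.5 to 181 CPM) and lay above all male libraries in Cd207 (19 to 25.3 CPM).

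Of 33 cytokine and chemokine genes in the files, 23 passed the low-count filter and were tested. Among these, 5 were higher on day 6 and 7 on day 15 than on day 2 at an unadjusted p under 0.05. Over all genes, 1.41% and 1.5% were. None of the 23 was lower at that p, and 5 had a negative difference on each day. Il1b, the fever cytokine interleukin 1 beta, measured 0.0903, 0.292 and 0.194 CPM on day 2, 11.7, 0.291 and 0.219 on day 6 and 2.44, 0.799 and 4.53 on day 15. On day 6 it was high in replicate 1 only, and all day 15 libraries were above day 2 (3.73, 95% interval 1.04 to 6.41). Ccl17, which draws T cells, and the epidermal chemokine gene Cxcl14 had differences of 3.25 (95% interval 1.05 to 5.45) and 0.61 (95% interval 0.18 to 1.05) on day 15. Tnf stood at 0.723, 0.779 and 0.437 CPM on day 2 and 1.2, 1.43 and 1.37 on day 15, without overlap. Csf3r, the receptor for the neutrophil growth factor, was at 11.8, 1.55 and 0.601 CPM on day 6 against 1.22, 1.12 and 1.26 on day 2. Of 6 neutrophil-associated genes tested, 3 were higher on day 6 and 2 on day 15 at that p. Without replicate 1 of day 6, 0 cytokine genes and 0 neutrophil-associated genes were higher on day 6 than on day 2, while on day 15 the counts were again 7 and 2.

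Macrophage genes had mostly negative differences, 22 of 26 on day 15 with a median of -0.245. At an unadjusted p under 0.05, 1 was lower, where 2.6% of all genes were. That gene was Cd68, a lysosomal protein of macrophages, at 57.5, 29.7 and 33.5 CPM on day 2, 35.5, 30.9 and 25.8 on day 6 and 23.4, 17.9 and 23.2 on day 15. Day 15 lay below both other days, with a difference from day 2 of -0.90 (95% interval -1.43 to -0.38, unadjusted p = 0.00183). Mast cells, marked by the protease gene Cpa3, gave overlapping days (-0.10, 95% interval -0.94 to 0.75), and none of 13 mast cell genes was past that p. Over all genes, 4.1% were past it on day 15 in either direction.

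Few dermal matrix genes were past an unadjusted p of 0.05. Of 17 collagen genes, 17 had a negative difference on day 6 and 15 on day 15, with medians of -0.217 and -0.255, and 1 and 2 were lower at that p, where 0.834% and 2.6% of all genes were. Of 26 other matrix genes, 1 was lower on day 6, and 2 were lower and 1 higher on day 15. Col1a1 and Col3a1, the main fibrillar collagens, gave -0.31 (95% interval -1.02 to 0.41) and -0.27 (95% interval -0.91 to 0.37) on day 15, with overlapping libraries. The 2 past that p on day 15 were Col16a1 (-0.41) and Col15a1 (-0.44), and on day 6 it was Col8a1 (-0.67). Lum, which spaces collagen fibrils, measured 215, 188 and 169 CPM on day 2, 131, 161 and 129 on day 6 and 126, 111 and 132 on day 15, below day 2 without overlap on both later days (-0.63, 95% interval -1.15 to -0.12 on day 15). The collagenase gene Mmp13 ran the other way, at 0.406, 2.04 and 0.534 CPM on day 2 and 5.62, 5.02 and 8.65 on day 15 (2.69, 95% interval 0.95 to 4.43). Col1a1 stood at 189.7 to 297 CPM in vehicle females, below every male library.

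Adamts9, a protease that trims matrix proteoglycans, measured 8.31, 7.5 and 6.75 CPM on day 2, 15.4, 6.39 and 5.19 on day 6 and 13.6, 13 and 13.2 on day 15. Replicate 1 of day 6 was above all day 15 libraries, and the other day 6 libraries were below all of day 2. Its difference between days 15 and 6 was 0.56 (95% interval -0.00 to 1.12) with all libraries. Without replicate 1 of day 6 it was 1.22, the only call among the genes tested in that comparison (0.00647%, edgeR adjusted p = 0.0413), in a fit where the pair of remaining day 6 libraries is assumed to vary like the other groups. Over its 16 alternatives the adjusted p ran from 0.0413 to 1. Antisense transcripts overlap it, and their part in its counts was not tested.

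Retinoid genes differed in the day on which they were highest. Besides Aldh1a2, Cyp26b1, which breaks retinoic acid down, was higher on day 6, at 64.3, 88.6 and 87.1 CPM on day 2, 104, 119.8 and 111 on day 6 and 81, 94.9 and 90.4 on day 15. All day 6 libraries lay above the rest, with a difference from day 2 of 0.48 (95% interval 0.23 to 0.73, unadjusted p = 0.000692). Aldh1a3, another retinoic acid enzyme, and Stra6, a receptor for retinol uptake, were instead highest on day 15, at 1.01 and 0.77 above day 2 on the log2 scale, each without overlap. Of 14 retinoid genes, 2 were higher on day 6 and 3 on day 15 at an unadjusted p under 0.05. The shares of all genes were 1.41% and 1.5%, and none of the 14 was lower. On day 15 none was past that p without replicate 2 of each day.

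Genes that respond within minutes to stimulation followed replicate number as much as day. Fos measured 84.7, 122 and 267 CPM on day 2, 83.1, 110.3 and 153 on day 6 and 51, 82.4 and 85.2 on day 15, lowest in replicate 1 and highest in replicate 3 on each of the 3 days. Its difference for day 15 was -1.12 (95% interval -2.30 to 0.06), and that of Egr1 was 0.09 (95% interval -0.73 to 0.90). Of 23 such genes, Fosb (-2.04) and Dusp1 (-0.79) were lower and Nr4a3 (1.33) higher on day 15 at an unadjusted p under 0.05. Over all genes, 2.6% were lower and 1.5% higher. The Fosb difference ran from -2.49 to -1.02 over 16 alternatives, the smallest size being that without replicate 3 of day 2.

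Among 14 genes of pain mediators and their receptors, 1 was lower on day 6 and 2 on day 15 at an unadjusted p under 0.05. Over all genes, 0.834% and 2.6% were lower. Ntf3, a growth factor of sensory fibres, was at 4.61, 6.18 and 5.87 CPM on day 2 and 3.9, 3.19 and 4.32 on day 15, without overlap (-0.54, 95% interval -0.95 to -0.14), and Ptgs2, the inducible prostaglandin enzyme, gave -1.46 (95% interval -2.84 to -0.08) with overlapping libraries, the highest being replicate 3 of day 2. The fat gene Adipoq (0.16, 95% interval -0.52 to 0.83) and the respiratory gene Cox4i1 (0.02, 95% interval -0.28 to 0.32) gave intervals that included 0 for day 15 against day 2.

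**Figure D5:**
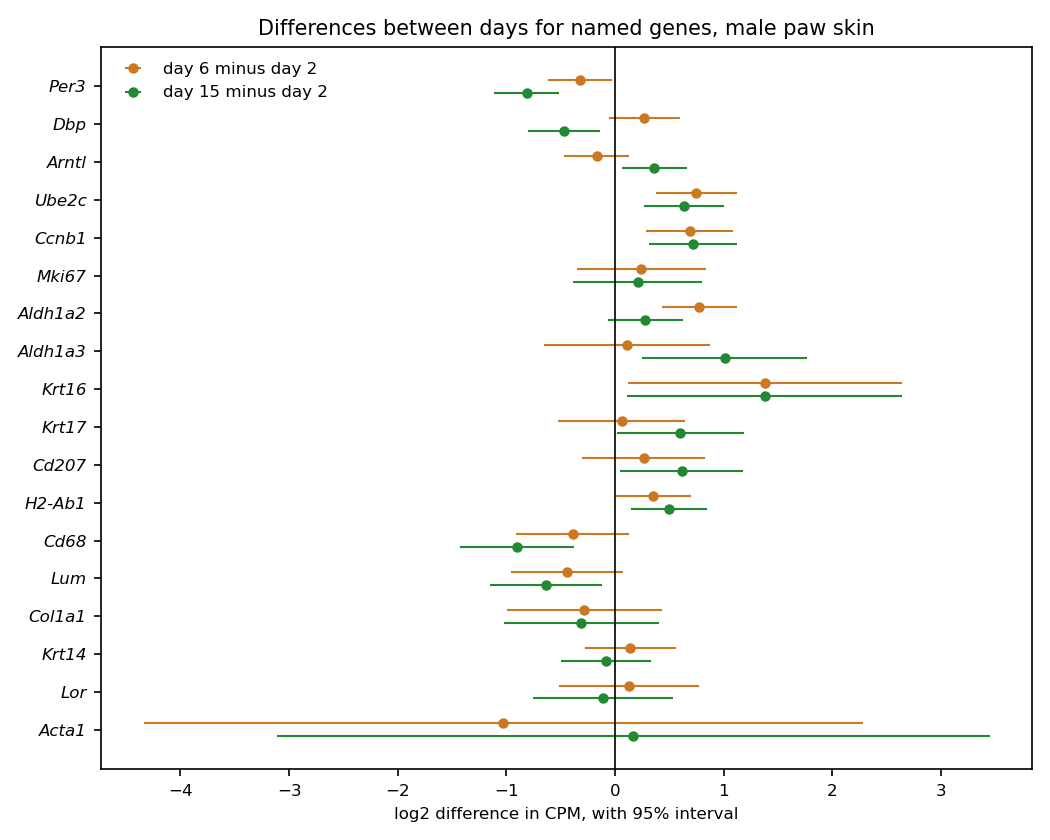
Log2 difference of day 6 (orange) and day 15 (green) from day 2 with its 95% interval, from edgeR, for named genes, with both comparisons sharing the day 2 libraries. Intervals of Per3, Ube2c, Ccnb1 and Cd68 on day 15 leave out 0 before any adjustment, those of Mki67, Col1a1, Krt14 and Lor include it, and Acta1 has the widest.

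Treated females of the same series, sampled on days 2, 6 and 16, were set against the course, as the male difference minus the female difference. Reads assigned to no single gene because they overlapped several made up 0.205% to 0.240% in treated females of those days and 0.539% to 0.566% in males. Vehicle females held 0.582% to 0.632%, so the gap did not follow sex. Its part in the comparison was not tested. Sex, other differences between these libraries and the late day (15 or 16) cannot be told apart here. For day 6 against day 2, 0 of 15346 genes passed in edgeR (1488 or 9.7% at an unadjusted p under 0.05, and 16 in DESeq2 after adjustment). For the late day against day 2, 1 gene passed (0.00652%), with 1332 (8.68%) at an unadjusted p under 0.05 and 100 in DESeq2, of which 96 were lower. The gene was Adh7, an alcohol dehydrogenase that also oxidises retinol. In males it measured 129.6, 169.5 and 148 CPM on day 2 and 128, 147 and 124 on day 15, and in females 119, 133 and 120.1 on day 2 and 236, 254 and 258 on day 16. Male days overlapped, while all female day 16 libraries were above all female day 2 libraries. The difference of differences was -1.17 (95% interval -1.54 to -0.80) on the log2 scale, adjusted p = 0.0363. That call held in 2 of 12 fits that each left out 1 library, with adjusted p from 0.00396 to 0.305.

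Late-day counts turned on single libraries. Leaving out each of the 12 libraries in turn gave 0 to 183 calls, and 183 came without replicate 1 of female day 2 (176 lower). Of 27 hair shaft genes, 21 were lower in that comparison at an unadjusted p under 0.05, where 6.05% of all genes were. Many of the 96 genes that DESeq2 called lower there were hair keratin and keratin-associated genes. Among them were Krt33a, Krtap7-1 and Krt34, with log2 differences of differences of -10.05, -9.704 and -9.431. Krtap4-7 had no read in any female library of day 2 and 4.54, 2.22 and 25.6 CPM on day 16, against 13.3, 6.13 and 7.13 on day 2 and 17.7, 20.5 and 20.4 on day 15 in males. Per3 went from 50.6, 44 and 48.8 CPM to 52.5, 47.6 and 48.7 in females, with a difference of differences of -0.87 (95% interval -1.28 to -0.45) (edgeR adjusted p = 0.175). For the mitosis list 12 of 30 genes were higher in that comparison at an unadjusted p under 0.05, against 2.63% of all genes, with a median of 0.541.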

How the data were processed

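Gene-level read counts of mouse hind paw skin were used as deposited, 1 table per library. Per the labels' protocols, stranded mRNA libraries were sequenced as 50-base single-end reads. Per the submitters' processing notes, bcl2fastq, TopHat2 and HTSeq were used with build mm9. Tool versions, the annotation and the strand setting of the counting are not given in the sources used here. The deposited counts are raw, whole numbers of reads per gene symbol for 22609 genes. The 5 summary lines that close each table entered neither totals nor tests, and reads on no gene made up 17.54% to 19.55% of the male libraries.

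Groups were taken from the labels. All 24 paw libraries (8 groups) were fitted together, with TMM size factors, the filterByExpr filter and edgeR's quasi-likelihood test (edgeR 4.0.16, R 4.3.3), and p-values were adjusted by Benjamini-Hochberg over 15346 genes at a threshold of 0.05. CPM values used the same size factors (0.961 to 1.05 in the 9 male libraries), and log2 CPM a prior count of 2. Differences are given as log2 with 95% intervals. The trend is the log2 slope per day of the 3 group means. The rule for named genes took called genes by size of change and 25 genes whatever their result, of which 1 is not reported here, and as edgeR called no gene in the male comparisons, all others were chosen after their values were seen. The members and the 42 gene lists were chosen with earlier results of these data known. Male libraries of the same day differed from each other by more than counting noise (lowest chi-square per degree of freedom 8.254), so none was taken as the same library read again. This cannot tell separate animals from repeated samples of an animal. Alternatives were other size factors, no filter, DESeq2 1.42.0, the 9 male libraries alone, a replicate block, the muscle level as a covariate, another time scale and each library left out. Libraries of other tissues were not used.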

Additional observations from a re-analysis of the deposited data

Results flagged for a closer look

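Adh7 was the 1 gene that edgeR called for a late-day course that differed between male and female libraries, where DESeq2 called 100. Sex cannot be told apart there from other differences between those libraries. The late difference from day 2 in males minus that in females was -1.17 on the log2 scale (edgeR adjusted p = 0.0363). All 3 female libraries of day 16 were above all 3 of female day 2, and the male days overlapped. Over 12 fits that each left out 1 library the call held in 2, with adjusted p from 0.00396 to 0.305, and it was lost with other size factors (0.0565). Its exons overlap 0610031O16Rik on the other strand, and the part of that in its counts was not tested.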

How the results depend on the processing

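No male comparison had a call in edgeR with other size factors, no filter, the 9 male libraries alone, the muscle level as a covariate or, for the trend, log2 of the day as the time scale. The same held without replicate 2 of each day, a setting chosen after seeing the data. DESeq2 called 1 gene for day 6 against day 2, 2 for day 15 against day 2, 2 for the trend and 4 for any change. For the male minus female differences it called 16 on day 6 and 100 on the late day. Leaving out each male library in turn gave 0 to 1 calls for day 15 against day 6 and for any change, the 1 being Adamts9 without replicate 1 of day 6, and 0 in the other male comparisons. For the male minus female differences, leave-outs added after seeing the data gave 0 to 12 calls on day 6 and 0 to 183 on the late day. The highest of each came without replicate 1 of female day 2, and without replicate 2 of female day 6 there were 2 calls on day 6. The late call became 0 with other size factors, where Adh7 had an adjusted p of 0.0565, and 3 with the muscle level as a covariate. The cause of these shifts was not tested. Replicate 2 lay below the mean of replicates 1 and 3 in muscle level by -2.74, and by -2.6 on the scale of summed CPM. Over 145 genes and 26 settings, 495 of 11591 values had another sign than in the main fit. A call was gained in 35 values and lost in 11. As Adh7 was the only call of the main fit, few values had a call to reverse, and 0 did.

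Replicate numbers were shared across days, but libraries of the same number did not deviate together throughout: correlations of their deviations ran from -0.0458 to 0.633, over 0.1 in 6 of 9 pairs, and 5 of 9 libraries correlated best with their own number on both other days. As a replicate block the number gave 0 calls in every male comparison, with 639 genes at an unadjusted p under 0.05 for day 6 against day 2, 1240 for day 15 against day 2 and 1485 for day 15 against day 6.

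With 3 libraries per day and a biological coefficient of variation of 0.244, the median gene's difference had an unadjusted 95% interval of 0.364 to either side on the log2 scale, and an adjusted call needs more.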
